A study of Mus musculus with 6 samples.

Results

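Integrins are heterodimers of an α and a β subunit that sit in the cell membrane and bind matrix proteins or receptors of other cells. Their short cytoplasmic tails are tied to actin by linker proteins. The 43 genes described here are those on the array whose symbol starts with Itga or Itgb together with 12 named linkers, the talins, kindlins (Fermt genes), vinculin, Ilk, the parvins, paxillin and zyxin. By family they were 18 α subunits, 9 β subunits, 12 linkers and 4 genes that carry an Itgb symbol without encoding a subunit. Each gene was represented by the probe set with the highest mean, and it counted as measured when its log2 value reached the background of 6.5 in at least 1 array. This was so for 24 of the 43 genes, among 9922 measured of 19938 genes with a probe set that names a single gene. RNA came from CD4+ dendritic cells (DC) of the spleen, sorted on CD11c and MHC class II and then on CD4 and CD8, from male mice aged 6 weeks. Each of 3 wild type (WT, Runx3 +/+) mice was compared with a littermate that carried a germline loss of the transcription factor Runx3 (Runx3-/-), so that the replicate numbers 1 to 3 name the litter. Since the loss is germline, every cell of those mice lacked the factor from the start, and the gate may hold different shares of cell types in the genotypes. In such bulk RNA, fewer cells of a type and less RNA per cell cannot be told apart.

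Each β chain limits which α chains can reach the surface. The β2 chain (Itgb2) pairs with the leukocyte α chains Itgal, Itgam, Itgax and Itgad, and the products CD11b (Itgam) and CD11c (Itgax) are surface markers by which DC are defined. The β1 chain (Itgb1) pairs with many α chains that bind fibronectin, laminin or collagen, whereas αv (Itgav) joins β1, β3, β5, β6 or β8 and binds vitronectin, the apoptotic cell bridge Mfge8 or latent TGF-beta. Talin and kindlin bind the β tails and switch integrins to their active form.

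Markers of these DC were present on the arrays. Log2 values of Itgax and Itgam averaged 12.83 and 10.72 in WT DC, and Cd4, H2-Ab1, H2-Aa, Flt3, Zbtb46, Esam, Sirpa, Clec4a4 and Irf4 were above background in all 6 arrays. Of these 11 identity genes, Irf4 was lower in Runx3-/- DC (adjusted p = 0.043, limma) and the others did not pass. Runx3 itself (probe set 10509030) read 11.24, 11.22 and 11.11 in WT and 9.16, 9.30 and 9.16 in Runx3-/- arrays (log2 change -1.98, 25.3% of the WT level and still above background, adjusted p = 0.0027, or 0.061 with the litter as a block). Array medians lay between 6.57 and 6.65. Markers of other cells also differed between the genotypes. Of 13 red pulp macrophage genes 11 were measured, all with a positive change and a median of 1.22, and 5 passed, Cd5l among them. Their summed level, on a log2 scale, lay between 13.06 and 13.47 in WT and between 13.79 and 14.06 in Runx3-/- arrays, while Adgre1 was at 0.013 and Cd163 was below background in all arrays. The sum of 8 monocyte genes lay between 13.49 and 13.75 in WT and between 14.10 and 14.18 in Runx3-/- arrays, with 1 gene (Cx3cr1) past the threshold. The sum of 10 endothelial and stromal genes was between 9.49 and 9.58 in WT and between 9.79 and 9.99 in Runx3-/- arrays. Of these genes 1 (Cdh5) passed. Both Cd5l and Cdh5 reached background through Runx3-/- arrays only, so their positive direction is not independent of the filter. The same holds for Cd8a, a CD8+ DC gene counted below. Of 8 platelet genes 6, among them Pf4 and Gp9, were below background in all arrays, as were 7 of 8 NK cell and 8 of 10 neutrophil genes, whose sums were nevertheless higher in all Runx3-/- arrays (8.27 to 8.33 against 8.56 to 9.14, and 8.90 to 9.48 against 9.64 to 10.2). The sum of plasmacytoid DC genes stood out in Runx3-/- 3, at 11.99. It was 10.85 and 11.06 in the other Runx3-/- arrays and 10.91 to 10.95 in WT. Siglech read 10.18 in Runx3-/- 3, against 7.40 to 7.45 in WT, and Ccr9 read 9.35, against 7.02 to 7.63. Without this array Itgb5 had a change of 1.33 (adjusted p = 0.077, limma), Itga9 one of 1.09 and Itgb7 one of -0.55. Sums for CD8+ DC, B cell, T cell, platelet and erythroid genes overlapped between the genotypes, and 0 of these genes passed (limma). A sum follows its brightest genes, and single genes could still differ. The 10 CD8+ DC genes had a median change of 0.35, 8 of them above 0, and the 5 measured B cell genes one of 0.58, 3 of them above 0. For the 6 measured plasmacytoid DC genes the median was 0.48, with 4 above 0 and 2 below it. Of these 2, 1 was lower in all 3 litters. Over all probe sets tested 40.7% were above 0. The part of these cell types in the results below was not tested.

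A single integrin gene passed the adjusted threshold. Itgb5, the β5 chain that joins αv in a receptor for vitronectin and Mfge8, rose 2.26-fold in Runx3-/- DC. The β7 chain Itgb7 and the parvin Parvb lay just outside the threshold, in opposite directions, and the α9 chain Itga9 did not pass at 2.05-fold. With limma (adjusted p of at most 0.05) the count was 1 higher and 0 lower of 24, against 1.56% of all 19149 probe sets tested (0.856% higher and 0.7% lower). At an unadjusted p of at most 0.05, 11 genes passed, 7 higher and 4 lower, where the shares over all probe sets were 15.9% in either direction, 5.59% higher and 10.3% lower. The methods of the study call a gene at 1.5-fold or more with an unadjusted p up to 0.05, and 3 genes passed in that way (Itgb5, Itga9 and Parvb, all higher), against 3.95% of all probe sets (2.01% higher and 1.94% lower). Parvb and Itga6 entered the tested set only through Runx3-/- arrays, all their WT values being below background. Their direction is thus not independent of the filter. Without Parvb the count by the methods' thresholds was 2, and Parvb is also among the 7 higher at an unadjusted p of at most 0.05. The 14 genes whose genotypes did not overlap were 7 higher (Parvb among them) and 7 lower. Over all probe sets such cases made up 22.4%, with 7.48% higher and 14.9% lower. A change above 0 was found for 12 of the 24 genes, Parvb and Itga6 included, and for 40.7% of all probe sets. The 15 measured subunits had a median log2 change of 0.27 and the 8 linkers one of -0.11, beside -0.035 over all probe sets tested. These medians include Itga6 among the subunits and Parvb among the linkers, so they too are not independent of the filter. With the filter in 3 arrays, which drops Itga6, the subunit median was 0.20. When litter was added as a replicate block 0 genes passed, as was so for all 19149 probe sets, and 12 of the 24 had an unadjusted p of at most 0.05, beside 3430 of the 19149. The methods' analysis of variance called 0 of the 24 and 6 of the 19149, with 14 and 2816 at an unadjusted p of at most 0.05.

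**Figure D1:**
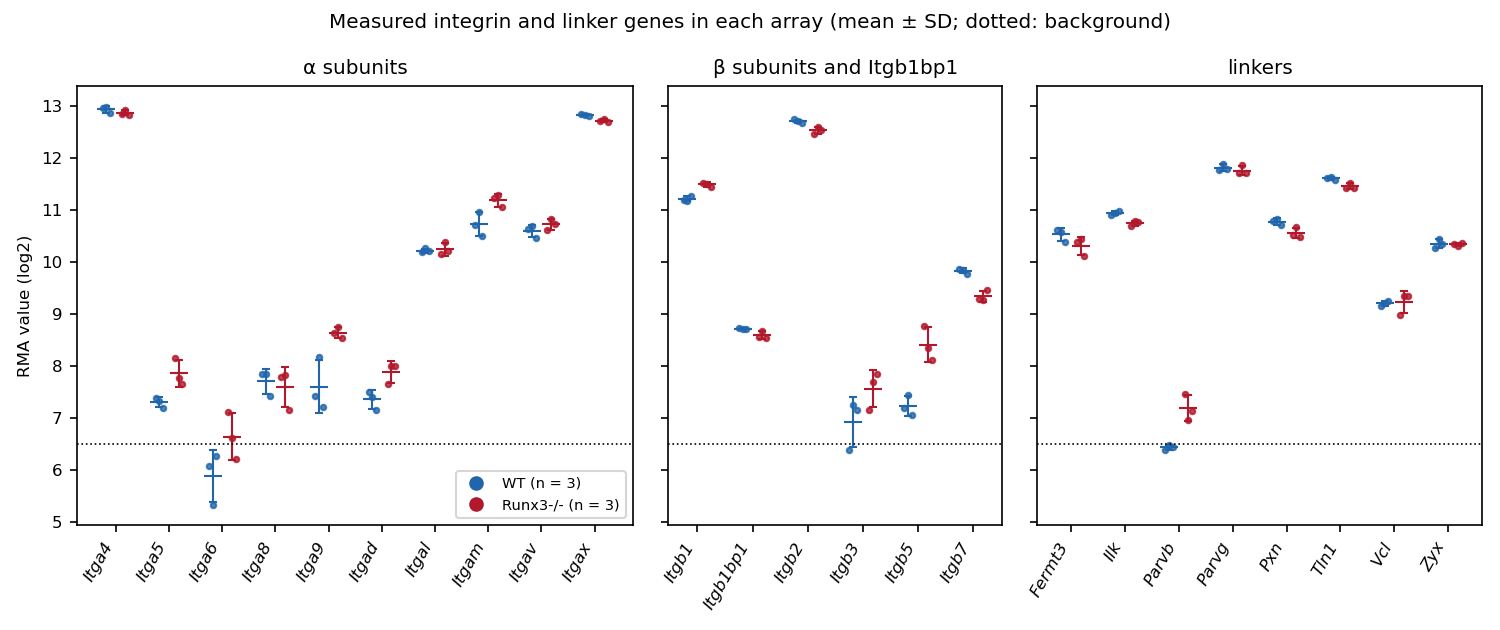
RMA log2 values (vertical axis) of the 24 measured genes in each of 6 arrays, with blue for WT, red for Runx3-/-, bars for mean and SD per genotype (n = 3) and a dotted line at the 6.5 cutoff. Itgb5 is apart between the genotypes (means 7.23 and 8.41), Parvb lies just under background in WT (mean 6.43), and the 3 values of Zyx in one genotype overlap those in the other.

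**Figure D2:**
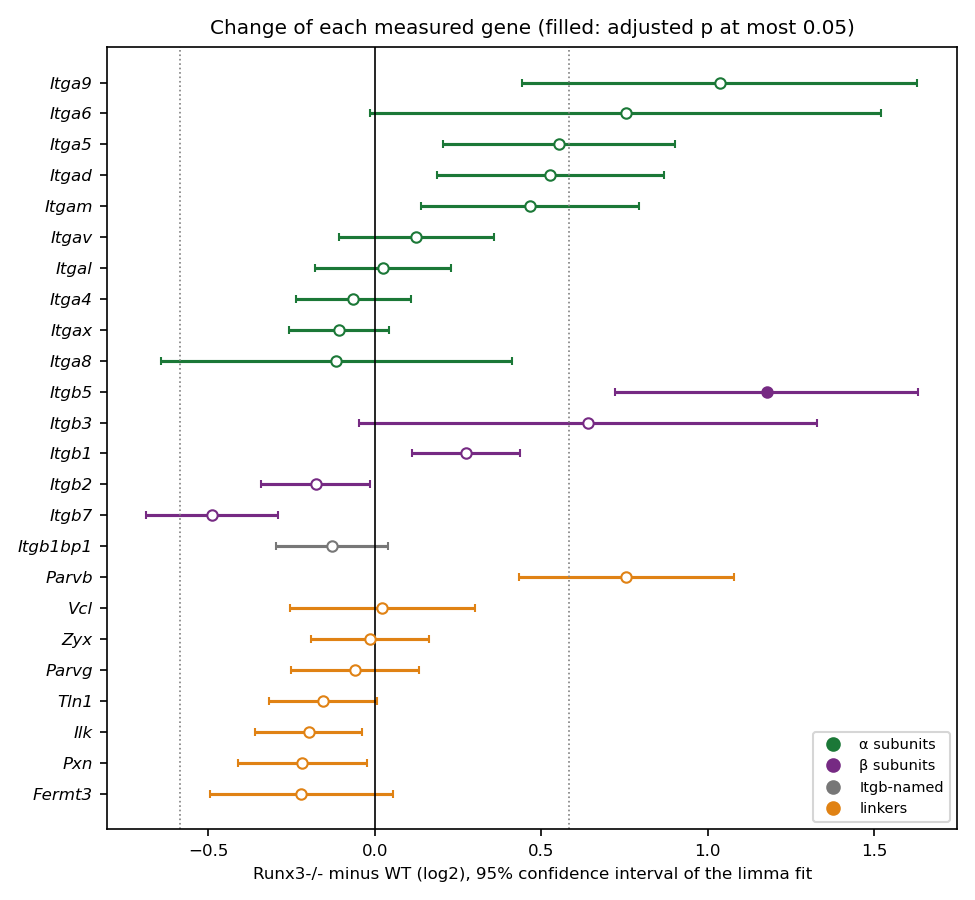
Difference in log2 level between Runx3-/- and WT DC (horizontal axis) for the 24 measured genes, grouped by family, with the 95% confidence interval of the limma fit and dotted lines at 1.5-fold in either direction. Only Itgb5, at 1.18, is filled, for an adjusted p of at most 0.05, and the interval of Itgb7 lies entirely below 0 (-0.69 to -0.29).

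The study asked which genes respond to Runx3, and promoters of these genes can be searched for the hexamer bound by RUNX factors. Promoter sequences of RefSeq (GRCm38.p6, a later build than the mm9 of the submitters' processing notes) were found for 31 of the 43 genes by symbol. Missing from that table were Itga6, Itga7, Itgad, Itgae, Itgal, Itgb1bp2, Itgb2, Itgb3, Itgb4, Parva, Pxn and Tln2. The hexamer TGTGGT was sought on both strands in the 250 bases before each annotated start. It was present for 5 of the 31 genes and for 4614 of all 32851 promoter windows. The 5 genes were Fermt3, Ilk, Itga3, Itga4 and Parvg, of which Itga3 was below background, and 0 of the other 4 passed (limma; Ilk had an unadjusted p of 0.023, Fermt3 of 0.098, and the analysis of variance also called 0). In the windows of Itgb5, Itgb7, Itga9, Itgam and Itgax these letters were not found, which says nothing about binding elsewhere. For Itgam and Itgax, the study reports Runx3 binding at the gene loci in WT CD4+ splenic DC, by sequencing of immunoprecipitated chromatin. Shown are the called gene Itgb5, the DC marker genes Itgam and Itgax, of which the product of Itgax (CD11c) was used in the sort, and Fermt3 as the window with most matches, 5′ to 3′ on the strand of the gene, with each match in capitals.
Itgb5 (chr16:33829415-33829664, plus strand): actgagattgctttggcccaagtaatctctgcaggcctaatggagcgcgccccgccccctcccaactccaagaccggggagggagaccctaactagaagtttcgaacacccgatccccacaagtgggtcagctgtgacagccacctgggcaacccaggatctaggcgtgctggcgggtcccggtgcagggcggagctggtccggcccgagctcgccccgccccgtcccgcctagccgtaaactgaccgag
Itgam (chr7:128062390-128062639, plus strand): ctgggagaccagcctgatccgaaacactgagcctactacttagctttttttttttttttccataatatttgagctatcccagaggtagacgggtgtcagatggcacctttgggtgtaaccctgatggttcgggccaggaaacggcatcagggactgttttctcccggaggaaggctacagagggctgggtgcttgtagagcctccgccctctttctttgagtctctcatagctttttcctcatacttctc
Itgax (chr7:128129300-128129549, plus strand): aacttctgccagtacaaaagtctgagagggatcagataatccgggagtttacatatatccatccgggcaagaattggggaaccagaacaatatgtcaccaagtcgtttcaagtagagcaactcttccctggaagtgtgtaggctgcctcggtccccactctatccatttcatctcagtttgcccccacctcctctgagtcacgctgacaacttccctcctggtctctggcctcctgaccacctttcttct
Fermt3 (chr19:7019470-7019719, minus strand): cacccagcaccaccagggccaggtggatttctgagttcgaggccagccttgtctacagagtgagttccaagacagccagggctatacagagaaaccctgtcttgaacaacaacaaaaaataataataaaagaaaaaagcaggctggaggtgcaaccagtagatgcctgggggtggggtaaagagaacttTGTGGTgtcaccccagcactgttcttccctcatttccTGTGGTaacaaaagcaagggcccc
The matches of Fermt3 begin 61 and 24 bases before its start. Itgam and Itgax are neighbours in the protein-coding order of chromosome 7, with Itgad next to Itgax.

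Among the β chains, Itgb5 and Itgb7 differed most clearly between the genotypes. Itgb5 (probe set 10435305) read 7.19, 7.44 and 7.07 in WT arrays 1 to 3 and 8.77, 8.35 and 8.11 in Runx3-/- arrays 1 to 3. All Runx3-/- values lay above all WT values, and the spread was wider in Runx3-/- (SD 0.33) than in WT DC (SD 0.19). The log2 change was 1.18 (SE 0.19, 95% confidence interval 0.72 to 1.63, adjusted p = 0.0449, limma). By exact permutation of the 6 arrays (two-sided) p was 0.1, which is the floor for groups of 3. Blocking on litter gave an adjusted p of 0.099, and this p lay between 0.077 and 0.19 in limma fits that left out any 1 of the 6 arrays, so the call needed every array, although the change stayed between 1.00 and 1.33. Over 14 alternatives the adjusted p ranged from 0.040 to 0.19.

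Itgb7, whose product joins α4 in a homing receptor for the gut vessel ligand Madcam1, or αE in a receptor for E-cadherin, was lower. Its log2 values were 9.87, 9.84 and 9.77 in WT and 9.29, 9.26 and 9.47 in Runx3-/- arrays. The groups lay apart, with means of 9.83 ± 0.05 and 9.34 ± 0.11 (SD, n = 3 each), which left 71.3% of the WT level. The change of -0.49 (SE 0.08) had an adjusted p of 0.0512 by limma and did not pass (0.040 to 0.22 in the 14 alternatives). It passed with the filter in 3 arrays (0.045) and with the trended, robust variance (0.040). Of its α partners, Itga4 read 12.96, 12.99 and 12.86 in WT and 12.85, 12.93 and 12.84 in Runx3-/- arrays, a change of -0.064 (95% confidence interval -0.24 to 0.11), and Itgae was below background in all 6 arrays. Cdh1, which encodes E-cadherin, stood below background in all arrays as well, but only just in Runx3-/- 3 (6.4997, against 5.45 to 5.70 in the others).

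The β1 chain Itgb1 was slightly higher. It read 11.19, 11.18 and 11.27 in WT and 11.52, 11.51 and 11.44 in Runx3-/- arrays, without overlap and with SDs of 0.05 and 0.04. This change of 0.27 (SE 0.07) amounted to 1.21-fold and did not pass (adjusted p = 0.12). Itgb3, the partner of αv and of the platelet chain Itga2b, gave 6.37, 7.25 and 7.15 in WT and 7.16, 7.70 and 7.84 in Runx3-/- arrays. The groups overlapped and the WT spread was wide (SD 0.48), with WT 1 below background. Within litters, though, the differences were 0.79, 0.44 and 0.69, and the unadjusted p was 0.063 with genotype alone and 0.0023 with the litter block (adjusted p = 0.35 and 0.11). Itga2b itself and Itgb6 and Itgb8, the β chains of the TGF-beta-activating αv integrins, were below background in all arrays, as were Itgb4 and Itgb2l. Itgav, the shared α chain of β3 and β5, read 10.64, 10.69 and 10.46 in WT and 10.61, 10.83 and 10.73 in Runx3-/- arrays. These groups overlapped and the change was 0.13 (95% confidence interval -0.11 to 0.36).

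Several α chains of the β1 family had positive changes, though 0 of the 10 measured α chains passed by limma or by the analysis of variance. At an unadjusted p of at most 0.05 (limma) 4 of the 10 were higher and 0 lower. These were Itga9 and Itga5, and Itgam and Itgad of the β2 family. Over all probe sets the shares were 5.59% higher and 10.3% lower. Itga9, whose product binds Vcam1 and tenascin, read 7.42, 8.17 and 7.22 in WT and 8.64, 8.75 and 8.53 in Runx3-/- arrays. WT 2 stood well above the other WT arrays, yet below each Runx3-/- array. The change was 1.04 (SE 0.24), or 2.05-fold, with an adjusted p of 0.12, and it was past the thresholds of the study's methods. Without WT 2 the change was 1.32 and the adjusted p 0.026 (0.026 to 0.35 in the 14 alternatives). Itga5, the α chain of the fibronectin receptor, read 7.39, 7.33 and 7.20 in WT and 8.16, 7.76 and 7.65 in Runx3-/- arrays. Its groups lay apart at a change of 0.55 (SE 0.14, 1.47-fold, adjusted p = 0.14).

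Itga6, a laminin-binding chain, did not reach background in WT (6.07, 5.32 and 6.27) and read 7.11, 6.61 and 6.21 in Runx3-/- arrays. Above background were 2 of the 3 Runx3-/- arrays, the littermates of litter 3 read 6.27 and 6.21, and the fold is at least 1.10 against the background level (adjusted p = 0.32). Itga8, another chain that joins β1, read 7.85, 7.84 and 7.42 in WT and 7.80, 7.82 and 7.15 in Runx3-/- arrays, with both arrays of litter 3 lowest in their group and a change of -0.11 (SE 0.22). The collagen and laminin receptor chains Itga1, Itga2, Itga3, Itga7, Itga10 and Itga11 were below background in all arrays.

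In the β2 family, Itgam and Itgad were higher and Itgax and Itgb2 slightly lower in Runx3-/- arrays, without overlap, but none of these passed. Itgam (probe set 10557862) read 10.72, 10.96 and 10.50 in WT and 11.23, 11.29 and 11.05 in Runx3-/- arrays. All Runx3-/- values were higher than all WT values, and within litters the differences were 0.51, 0.34 and 0.56. The change of 0.47 (SE 0.13, 1.38-fold) did not pass (adjusted p = 0.17, or 0.12 with the litter block). A further 3 probe sets named Itgam together with the ribosomal gene Rpl35 and were left out, with changes of 0.01 to 0.03.

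Itgax (probe set 10557895) read 12.85, 12.83 and 12.80 in WT and 12.71, 12.75 and 12.70 in Runx3-/- arrays. Values of the genotypes lay apart, with SDs of 0.02 and 0.03, but the change was only -0.11 (95% confidence interval -0.26 to 0.04, adjusted p = 0.47). Itgad, the α chain of CD11d, gave 7.51, 7.41 and 7.15 in WT and 7.65, 8.0 and 8.01 in Runx3-/- arrays. Its groups were apart by little, since Runx3-/- 1 stood 0.14 above its littermate, against 0.59 and 0.85 in the other litters, and the change was 0.53 (SE 0.14, adjusted p = 0.15). A further Itgad probe set was below background in all arrays. Itgal, the α chain of the Icam1 receptor LFA-1, read 10.19, 10.26 and 10.21 in WT and 10.15, 10.38 and 10.21 in Runx3-/- arrays, which overlapped (change 0.025, 95% confidence interval -0.18 to 0.23). Icam1 was at 0.058 (SE 0.10).

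The common chain Itgb2 was slightly lower, at 12.74, 12.71 and 12.68 in WT and 12.47, 12.59 and 12.54 in Runx3-/- arrays, again without overlap (change -0.18, SE 0.07, adjusted p = 0.28). The log2 difference of each α chain to Itgb2 within an array removes any shift that an array shares. For Itgam this difference was -2.02, -1.75 and -2.18 in WT and -1.24, -1.29 and -1.49 in Runx3-/- arrays, a rise of 0.64. For Itgad the rise was 0.70, for Itgal 0.20 and for Itgax 0.07, and the groups lay apart in each case. These 4 results are not independent, since each subtracts the same Itgb2 value, whose own change was -0.18. Taken alone, Itgal changed by 0.025 with overlapping groups, and Itgax by -0.11. Exact permutation of the arrays (two-sided) gave p = 0.1 for each of the 4, the smallest possible here, and 0.1 after Benjamini-Hochberg adjustment over the 4, so none could pass. Because levels of different probe sets are not comparable, the differences carry meaning only between arrays.

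**Figure D3:**
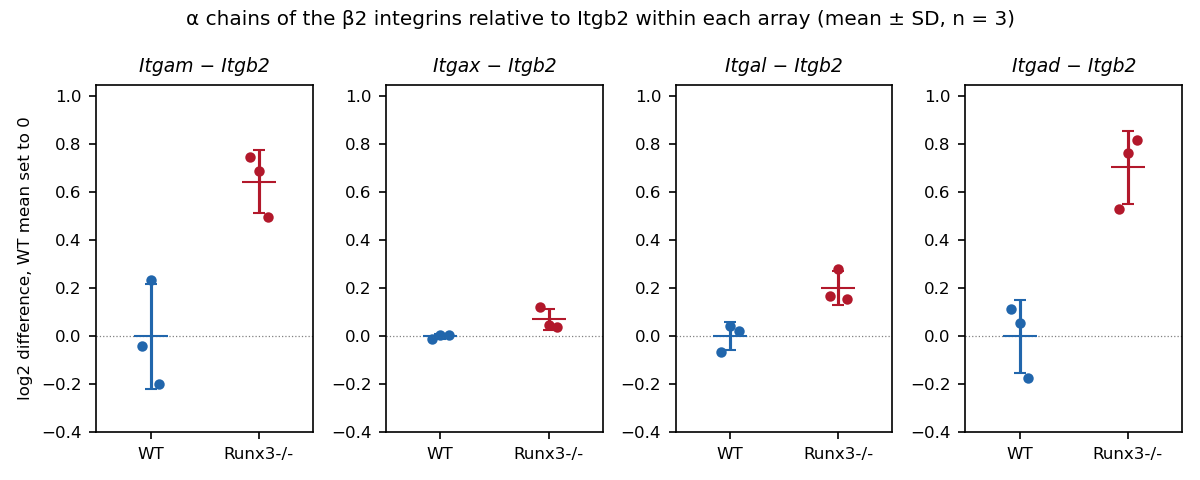
Log2 difference between each of 4 α chain genes and Itgb2 within each array (vertical axis, WT mean set to 0), blue for WT and red for Runx3-/-, bars giving mean and SD per genotype (n = 3). The rise is 0.64 for Itgam and 0.70 for Itgad, compared with 0.07 for Itgax and 0.20 for Itgal. Each includes the change of Itgb2 itself (-0.18).

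Of the linkers, Parvb stood apart from the rest. The parvins join Ilk and PINCH proteins in a complex that ties integrin tails to actin. Parvb (β-parvin, probe set 10425852) read 6.38, 6.48 and 6.44 in WT, each below background, and 7.46, 6.97 and 7.14 in Runx3-/- arrays, each above it. The Runx3-/- mean lay 1.61-fold above the background level, which allows for the floor but not for the spread of the arrays. Its log2 change of 0.76 had a 95% confidence interval of 0.43 to 1.08. The adjusted p of 0.0587 (limma) did not pass (0.053 to 0.23 in the 14 alternatives, 0.13 when blocked on litter). Parvg (γ-parvin), its neighbour on chromosome 15, read 11.77, 11.89 and 11.79 in WT and 11.70, 11.86 and 11.71 in Runx3-/- arrays, which overlapped, with a change of -0.06 (95% confidence interval -0.25 to 0.13). Parva (α-parvin) was below background in all arrays.

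None of the remaining linkers passed under any alternative. Of the 8 measured linkers 6 had a change below 0, as did 11356 of the 19149 probe sets. Ilk, the scaffold of the parvin complex, read 10.91, 10.95 and 10.98 in WT and 10.69, 10.79 and 10.76 in Runx3-/- arrays, without overlap (change -0.20, SE 0.07, adjusted p = 0.23). Paxillin (Pxn), an adaptor of adhesion sites, had a change of -0.22 (SE 0.08) and talin (Tln1) one of -0.15 (SE 0.07), again with groups apart and without passing (adjusted p = 0.27 and 0.34). The kindlin of blood cells, Fermt3, was at -0.22 (SE 0.11), with overlapping groups but a lower Runx3-/- value in each litter (-0.25, -0.14 and -0.28). Vinculin (Vcl) and zyxin (Zyx), which bind actin filaments at adhesion sites, were at 0.023 (SE 0.11) and -0.014 (SE 0.07), and their direction turned when single arrays were left out and, for Zyx, with median centring (0.026). Fermt1, Fermt2 and Tln2, linkers of epithelial, muscle and other tissues, were below background in all arrays. Itgb1bp1 (ICAP-1), which binds the β1 tail, was at -0.13 (SE 0.07), and Itgb1bp2, Itgb3bp and Itgbl1, which encode no subunits, were below background throughout.

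**Figure D4:**
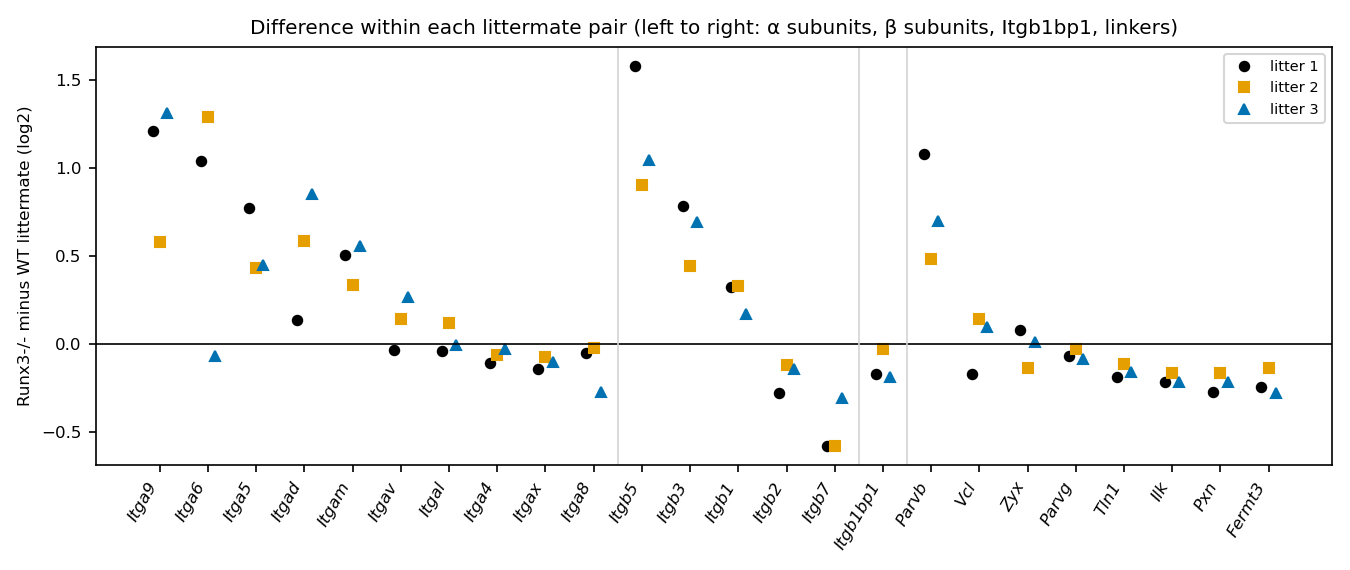
Log2 difference of each Runx3-/- array to its WT littermate (vertical axis) for the 24 measured genes, 1 symbol per litter. The differences of Itgb5 are all above 0.90, those of Itga6 range from -0.06 to 1.29, and 5 of the 8 linkers are below 0 in all 3 litters.

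In all 3 litters 8 of the 24 genes were higher in the Runx3-/- animal and 11 were lower, that is 33.3% and 45.8%, beside 3059 and 5266 of the 19149 probe sets tested. Among the 15 subunits 7 were higher and 5 lower in every litter, and among the 8 linkers 1 (Parvb) and 5. Parvb is tested only through its Runx3-/- arrays, so its place among the higher genes is not independent of the filter. Litter 1 had the largest difference for Itgb5 (1.58), Itga5 (0.77) and Parvb (1.08), whereas litter 3 had the largest for Itga9 (1.32), Itgad (0.85) and Itgam (0.56). Litter 2 had the smallest difference for Itgb5 (0.91), Itga9 (0.58) and Parvb (0.48).

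Other genes of integrin function were read from 4 lists, and 0 genes of them passed by limma. Of 18 genes of inside-out activation, by which signals through the GTPase Rap1 switch integrins on, 17 were measured with a median change of -0.047. Rasgrp1, an exchange factor, was at 0.41 (SE 0.11, adjusted p = 0.16), the Rap inhibitor Sipa1 at -0.16 and the exchange factor Rapgef1 at -0.22. Of 32 tail-binding and adhesion site genes 22 were measured (median -0.028). Actn1 (α-actinin), which crosslinks actin, read 10.54, 10.66 and 10.65 in WT and 10.24, 10.27 and 10.23 in Runx3-/- arrays, a change of -0.37 without overlap (adjusted p = 0.063). Vasp, which promotes actin filament growth, was at -0.35 (adjusted p = 0.11), and Sorbs3 (vinexin), a vinculin partner, at 0.58, with all WT arrays below background and 2 Runx3-/- arrays above it (adjusted p = 0.067).

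Among 24 kinases and adaptors of outside-in signalling 18 were measured (median 0.020). Dock1, a Rac exchange factor used in the uptake of apoptotic cells downstream of integrins, read 8.23, 8.50 and 7.91 in WT and 9.26, 9.20 and 8.85 in Runx3-/- arrays. These lay apart, at 1.85-fold, and did not pass (adjusted p = 0.083). Vav3 was at -0.29 (adjusted p = 0.11) and the Src family kinase Fgr at 0.23 (adjusted p = 0.21). Among 34 ligands and co-receptors 14 were measured, with a median of 0.15. Vcam1, a ligand of α4 and α9 integrins that is also in the red pulp macrophage list, read 9.67, 9.70 and 8.77 in WT and 10.85, 10.83 and 10.63 in Runx3-/- arrays (2.62-fold, adjusted p = 0.067). The tetraspanin Cd81 was at 0.71 (adjusted p = 0.19) and the scavenger receptor Cd36 at 0.41 (adjusted p = 0.23). At an unadjusted p of at most 0.05 (limma) the 4 lists held 2, 6, 4 and 5 genes in the order given. These were out of 17, 22, 18 and 14 measured, and over all probe sets tested the share was 15.9%. Sorbs3, Dok2 and Src are in these counts but entered the tested set only through Runx3-/- arrays. Their direction is thus not independent of the filter. The analysis of variance and the litter block called 0 in each list, whereas the trended, robust variance called 1, in the tail-binding list.

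**Figure D5:**
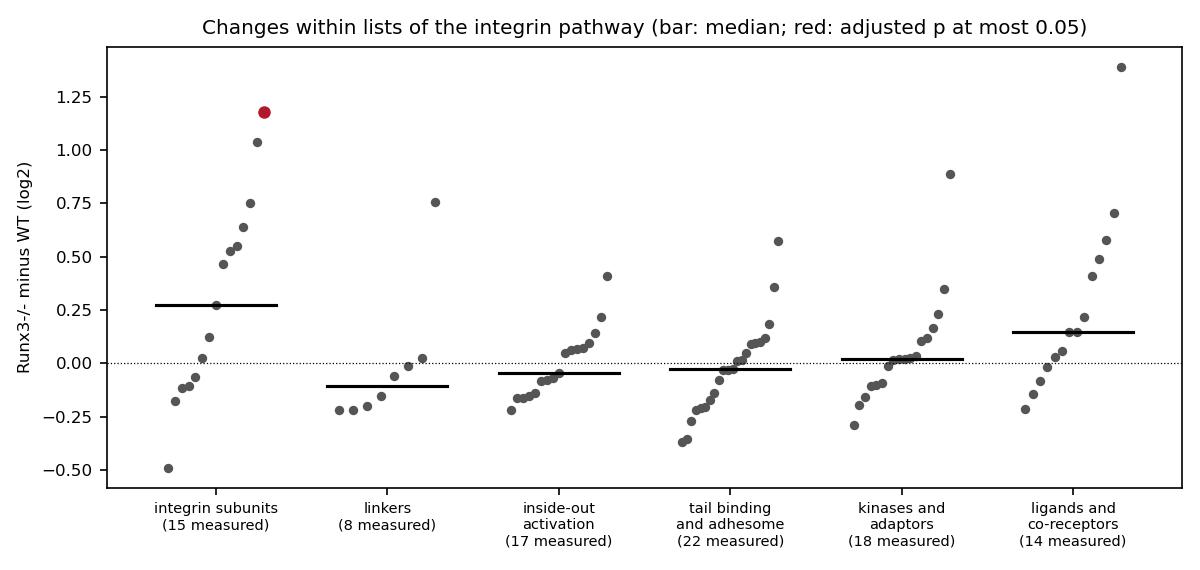
Difference in log2 level between Runx3-/- and WT DC (vertical axis) for measured genes of 6 lists, each sorted from lowest to highest, with the median as a bar. Itgb5 is the only red point, for an adjusted p of at most 0.05, and the medians lie between -0.11 (linkers) and 0.27 (integrin subunits).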

How the data were processed

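RNA of CD4+ splenic DC from 3 WT and 3 Runx3-/- mice was hybridised to 1 Affymetrix array each. The authors imported the raw files into Partek and computed RMA (robust multichip average) values with a correction for GC content. The deposited values are log2 intensities on a similar scale in each array. A shift shared by most genes can be hidden in them, and changes near background are understated. The arrays were not identical in level, with medians of 6.57 to 6.65 and a median change of -0.035 over all probe sets tested. The submitters' processing notes name mm9, without a Partek version. An exon array is named in the methods, but the probe sets match a gene-level platform.

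Of 35399 probe sets, 21789 had 1 gene symbol in the platform annotation, 1621 several and 11989 none, and 0 symbols changed when checked by Entrez number against RefSeq (GRCm38.p6). Probe sets at or above 6.5 in at least 1 array (19149) were fitted by limma 3.58.1 in R 4.3.3 (linear model and moderated variance, genotype alone, two-sided, Benjamini-Hochberg over all tested probe sets, threshold 0.05), and the fit was tested on simulated data. The study's one-way analysis of variance, whose terms it does not list, was run on genotype alone. Where a group was wholly under 6.5, the fold of the other group's mean was taken against 6.5. This bound allows for the floor and leaves out the spread of the arrays. Same-numbered arrays are littermates per the labels, and deviations from the genotype means correlated at 0.16, 0.10 and 0.25 within litters 1, 2 and 3. Between arrays of different litters they correlated at -0.23 to 0.10, and WT 1 with Runx3-/- 2 reached the value of litter 2. The number of arrays limits the precision.

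Members and lists were chosen with earlier results of these data known. All measured members are named. Values in every array are given for members past either threshold, Itgam, Itgax, the β2 family and partner chains, and for a few further members chosen after their values were seen. Up to 3 genes with the smallest p are named from each further integrin list. The rule named at most 3 markers of a list by highest mean; in its place the markers that define a cell type or passed are named, and these, Icam1 and Cdh1 were chosen after their values were seen. Alternatives were the litter block, quantile normalization, median centring, other filters, the mean of a gene's probe sets, trended and robust variance, analysis of variance, and each array left out.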

Additional observations from a re-analysis of the deposited data

How the results depend on the processing

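With the litter as a replicate block, with no filter and with the methods' analysis of variance the count of integrin and linker genes higher at an adjusted p of 0.05 was 0, and it ranged from 0 to 1 when an array was left out, where the 1 (without WT 2) was Itga9 in place of Itgb5. The count of lower genes was 1 (Itgb7) with the filter in 3 arrays and with the trended, robust variance, and 0 under every other alternative. Past the methods' thresholds were 5 genes with median centring, which adds Itga5 and Itga6 to Itgb5, Itga9 and Parvb, and 4 to 5 without an array. The Runx3 change was -1.98 with the replicate block (adjusted p = 0.061) and -2.03 to -1.96 without an array (adjusted p = 0.0532 without WT 1). The linker median was -0.066 with median centring, which moved the median of all probe sets from -0.035 to 0.0062, and -0.15 to -0.078 without an array (lowest without Runx3-/- 2). Without an array the change ranged from -0.26 to 0.11 for Itga8 (turned without Runx3-/- 3), -0.043 to 0.074 for Itgal (without Runx3-/- 2), -0.041 to 0.14 for Vcl (without WT 1, Runx3-/- 2 or Runx3-/- 3) and -0.057 to 0.028 for Zyx (without WT 2 or Runx3-/- 2). Zyx also turned with median centring (0.026), and none of these 4 genes passed in any fit. The causes were not tested. Of 335 values for single genes, 315 kept direction and side of the threshold. The mean over probe sets changed no value, since no gene had a second measured probe set. Itga6 was not in the fit with the filter in 3 arrays. Across all probe sets, calls fell from 298 to 6 with the analysis of variance, and leaving out an array gave 0 (WT 1), 1 (Runx3-/- 3) or up to 205 (Runx3-/- 2).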
